A study of Mus musculus with 8 samples.

Results

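Isl1, Isl2, Pou4f1, Pou4f2, Pou4f3, Runx1, Prdm12, Drgx, Tlx3 and Shox2 are transcription factor genes that set and keep the identity of sensory neurons. Their levels were read from 3′ end RNA sequencing of mouse dorsal root ganglia, the clusters beside the spinal cord that hold the cell bodies of the neurons for touch, pain, itch, temperature and limb position. The 10 genes were found by name among 48315 listed gene symbols, 9 under these symbols and Drgx under its synonym Prrxl1. There were 8 libraries from wild type Swiss Webster (SW) mice given saline, 4 labelled female and 4 labelled male, each numbered 1 to 4. No other genotype, strain or agent was among them, and the labels give no age and do not say how many animals went into a library, so p-values speak only to the spread among the libraries, some of which may be technical. The study set RNA levels beside ribosome profiling of the same tissue, which was not analysed here. Every difference below is female minus male by label.

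Sensory neurons of the ganglia arise from neural crest cells. In the mouse embryo the LIM homeodomain factor Isl1 and the POU homeodomain factor Pou4f1 are switched on in nearly all of them as they leave the cell cycle, and shut down the earlier neurogenic programme. Prdm12, Runx1, Tlx3 and Drgx then act in the small neurons for pain, itch and temperature, while Shox2 and Runx3 act in large neurons for touch and limb position. Several of these factors stay on in the adult, where their RNA marks the neurons rather than the glia of the ganglion.

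Among the 10 genes, 8 carry a homeobox, the stretch that codes for the homeodomain that grips DNA; Runx1 carries a Runt domain and Prdm12 a PR domain with zinc fingers. The homeoboxes of the pairs Isl1 and Isl2, and Pou4f1 and Pou4f2, are shown because the results below compare the levels of these near relatives. They were taken from the GENCODE M21 coding sequences on build GRCm38, and each is 180 bases long and lies in 1 coding exon. Capitals mark bases that differ from the other gene of the pair. Isl1 (chr13:116303091-116303270, minus strand) and Isl2 (chr9:55544135-55544314, plus strand) share 150 of 180 bases.
Isl1: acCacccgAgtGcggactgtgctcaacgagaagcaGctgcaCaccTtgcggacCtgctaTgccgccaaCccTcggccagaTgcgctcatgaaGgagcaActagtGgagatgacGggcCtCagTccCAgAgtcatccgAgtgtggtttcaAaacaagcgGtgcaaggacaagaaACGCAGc
Isl2: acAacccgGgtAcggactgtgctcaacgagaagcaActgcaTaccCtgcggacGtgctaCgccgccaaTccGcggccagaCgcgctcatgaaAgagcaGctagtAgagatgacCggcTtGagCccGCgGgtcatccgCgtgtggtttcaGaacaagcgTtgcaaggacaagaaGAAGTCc
Pou4f1 (chr14:104465747-104465926, minus strand) and Pou4f2 (chr8:78434755-78434934, minus strand) also share 150 of 180 bases.
Pou4f1: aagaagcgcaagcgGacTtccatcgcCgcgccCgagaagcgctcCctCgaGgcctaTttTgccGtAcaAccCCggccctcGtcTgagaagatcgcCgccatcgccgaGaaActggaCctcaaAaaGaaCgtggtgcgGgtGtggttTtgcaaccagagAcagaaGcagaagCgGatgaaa
Pou4f2: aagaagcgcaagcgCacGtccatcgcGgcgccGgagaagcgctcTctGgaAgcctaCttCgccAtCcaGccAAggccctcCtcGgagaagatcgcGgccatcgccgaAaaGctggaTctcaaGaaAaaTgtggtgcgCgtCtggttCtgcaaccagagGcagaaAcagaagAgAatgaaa
Reads of a 3′ end library come from the other end of the transcript. Within the last 500 bases of the annotated transcript with the longest coding sequence no pair among the 10 genes shared any run of 25 bases, whereas the whole transcripts of Pou4f1 and Pou4f2 shared 73 such runs.

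Values are CPM, reads per 1000000 counted reads, and a 3′ end library gives reads by the number of transcripts whatever their length, so levels of different genes are set side by side without division by length. The libraries held between 7497805 and 12155800 counted reads, and 3 reads correspond to between 0.247 and 0.40 CPM. Transcripts that check the labels went against them in both replicate 1 libraries: Xist, the RNA of the silenced X chromosome, stood at 0.27 CPM in the library labelled female 1 and at 294 CPM in the library labelled male 1, and the Y-linked Ddx3y at 102 CPM in female 1 and 0.855 CPM in male 1. Differences of the factors and medians of the gene lists are therefore also given without these libraries. The library labelled male 2 held transcripts of the central nervous system. The summed level of the 13 genes of that marker list was between 14.5 and 24.2 CPM in the libraries labelled female, 313 CPM in male 2 and between 12.5 and 18.3 CPM in the other libraries labelled male. In male 2 the oligodendrocyte gene Mog stood at 37.1 CPM and the inhibitory neuron transporter Slc32a1 at 64.7 CPM, while Lbx1 and Lmx1b, factors of the dorsal horn, stayed at or below 0.326 CPM in all libraries, each highest in male 2. The motor neuron gene Chat was at 0 in 7 of 8 libraries, male 2 among them. The 14 genes of the pan-neuronal list all passed the filter on level, as in a tissue that holds neurons.

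All 10 factors were detected in all 8 libraries, with between 44 reads (Pou4f2 in female 1) and 3581 reads (Tlx3 in female 3), and all 10 passed the filter of a mean of at least 1 CPM. Tlx3 had the highest mean over the 8 libraries, 221 CPM, and Pou4f2 the lowest, 9.32 CPM. Between them stood Isl2 at 121 CPM, Pou4f1 at 105 CPM, Runx1 at 69.0 CPM, Isl1 at 42.3 CPM, Pou4f3 at 35.6 CPM, Shox2 at 33.3 CPM, Prdm12 at 29.0 CPM and Drgx at 18.9 CPM. The level of Tlx3 exceeded that of 94.6% of the 14505 tested genes, and that of Pou4f2 exceeded 39.4%.

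Neighbours in this order were set against each other within each library by an exact sign-flip test, two-sided, over 8 libraries, adjusted over the 9 neighbouring pairs; the order comes from the same values, so the test bears on the gap and not on the order. Of the 9 gaps, 3 passed. Pou4f1 stood above Runx1 in 8 of 8 libraries, by 0.59 ± 0.32 on the log2 scale (SD, n = 8, exact adjusted p = 0.0352). Runx1 stood above Isl1 in 8 of 8, by 0.67 ± 0.29 (SD, n = 8, exact adjusted p = 0.0352). Drgx stood above Pou4f2 in 7 of 8, by 0.93 ± 0.73 (SD, n = 8, exact adjusted p = 0.0469). Tlx3 and Isl2 did not differ beyond their spread, at 0.68 ± 0.99 (SD, n = 8, exact adjusted p = 0.199), nor did Isl2 and Pou4f1, at 0.22 ± 0.51 (SD, n = 8, exact adjusted p = 0.272). From Isl1 through Pou4f3, Shox2 and Prdm12 to Drgx no gap between neighbours passed, with exact adjusted p between 0.141 and 0.617. With any 1 library left out other than female 3, 0 gaps passed; with 7 libraries the smallest unadjusted p the test can give is 0.0156. Without both replicate 1 libraries 0 gaps passed, and with 6 libraries the smallest is 0.0312.

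**Figure D1:**
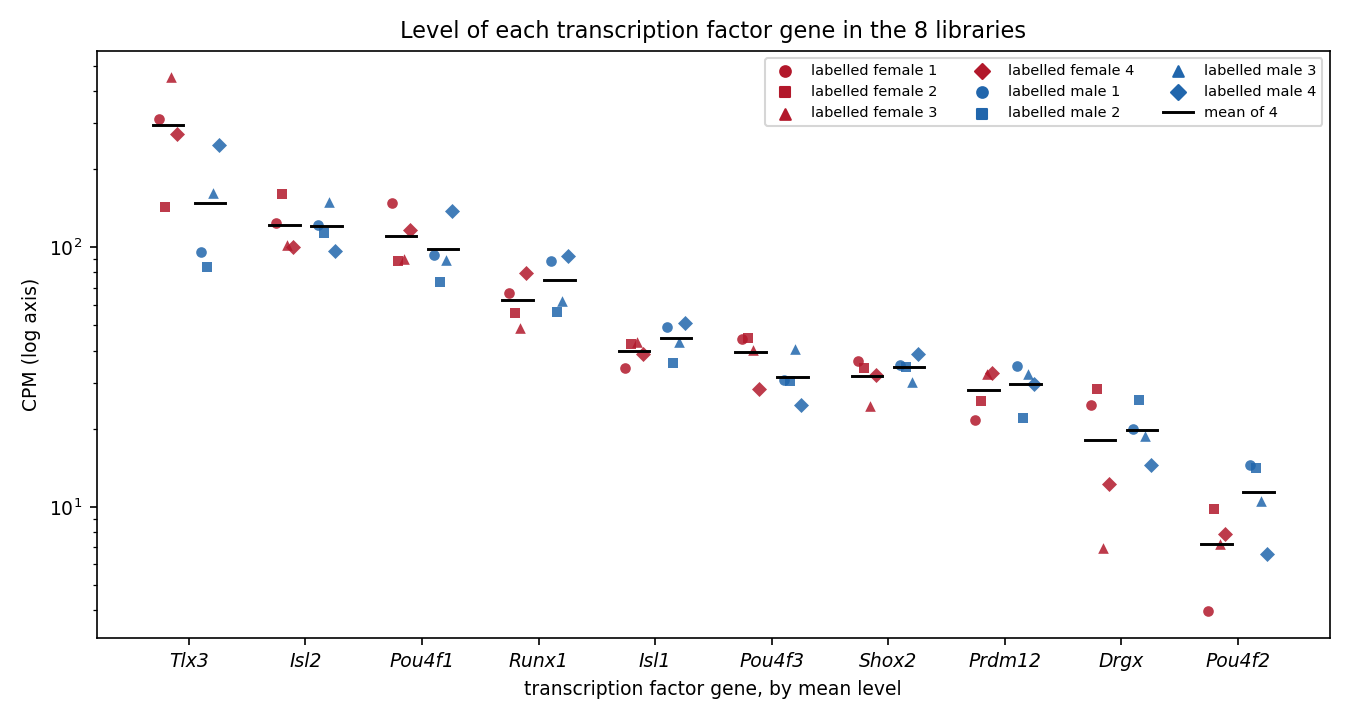
Level of each factor gene in CPM (log axis) in the 4 libraries labelled female and the 4 labelled male, 1 point per library with the mean of each group. Tlx3 runs from 84.2 to 451 CPM and Isl1 only from 34.4 to 51.2 CPM.

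The general factors Isl1 and Isl2 had overlapping levels under the 2 labels. Isl1 (ENSMUSG00000042258.13, chromosome 13, 116298281 to 116309689, minus strand) had 34.4, 42.5, 43.1 and 38.9 CPM in the libraries labelled female, against 49.4, 35.9, 43.1 and 51.2 CPM in those labelled male. The groups overlapped, and the highest and lowest library differed 1.49-fold. This was the narrowest range among the 10 factors: 93.3% of the 8589 genes at a mean of 10 CPM or more with no value of 0 ranged more widely, and the median gene ranged 2.21-fold. Isl1 is also made by sympathetic neurons, and the 7 sympathetic markers summed to between 9.58 and 45.7 CPM in the libraries labelled female and between 11.4 and 73.7 CPM in those labelled male. The noradrenaline enzyme Dbh was 0, 1.48, 0 and 5.47 CPM in female 1 to 4 and 11.7, 0, 0.098 and 0 CPM in male 1 to 4. Male 4 had the highest Isl1 and no Dbh, and male 1 had the second highest Isl1 with the highest Dbh and the highest sympathetic sum; the part of sympathetic neurons in the level of Isl1 was not tested.

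Isl2 (ENSMUSG00000032318.12, chromosome 9, 55538672 to 55546180, plus strand), the relative of Isl1 that also acts in motor neurons and retinal ganglion cells, had 124, 160, 102 and 99.9 CPM in the libraries labelled female, against 122, 114, 149 and 96.4 CPM in those labelled male. Female 2 and male 3 were the highest, and the groups overlapped almost entirely. Isl2 exceeded Isl1 in every library. The ratio of Isl2 to Isl1 was 3.6, 3.76, 2.36 and 2.57 in the libraries labelled female and 2.47, 3.18, 3.46 and 1.88 in the male-labelled ones, with means of 3.07 ± 0.711 under the female label and 2.75 ± 0.71 under the male label (SD, n = 4 each). The ratio did not differ by label beyond its spread (exact permutation test, two-sided, p = 0.486).

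Of the 3 genes of the Pou4f family, Pou4f1 made up most of the reads. Pou4f1 (ENSMUSG00000048349.9, chromosome 14, 104461676 to 104467999, minus strand), needed for the survival and the mature gene programme of sensory neurons in the mouse, had 149, 88.5, 90.5 and 116 CPM in the libraries labelled female, against 93.3, 73.7, 89.0 and 138 CPM in those labelled male. Female 1 and male 4 stood above the others. Pou4f3 (ENSMUSG00000024497.3, chromosome 18, 42394539 to 42397249, plus strand), best known as the factor of inner ear hair cells, had 44.3, 44.8, 40.3 and 28.5 CPM in the libraries labelled female, against 30.9, 30.5, 40.5 and 24.7 CPM in those labelled male. Its lowest library in each group was replicate 4, and the groups overlapped. Pou4f2 (ENSMUSG00000031688.4, chromosome 8, 78433010 to 78436645, minus strand), the factor of retinal ganglion cells, had 3.97, 9.79, 7.18 and 7.87 CPM in the libraries labelled female, against 14.5, 14.1, 10.5 and 6.56 CPM in those labelled male. Its 44 reads in female 1 give a 95% exact binomial (Clopper-Pearson) interval of 2.88 to 5.32 CPM and its 130 reads in male 2 an interval of 11.8 to 16.8 CPM; such intervals cover counting error only.

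Pou4f1 and Pou4f2 stood high in different libraries. Their ratio was 37.5, 9.04, 12.6 and 14.8 in the libraries labelled female and 6.42, 5.22, 8.49 and 21.0 in the male-labelled ones, with means of 18.5 ± 12.9 under the female label and 10.3 ± 7.29 under the male label (SD, n = 4 each). It was above 12 in female 1, 3 and 4 and male 4 and below 10 in the other libraries. By label the ratio did not differ beyond its spread (exact permutation test, two-sided, p = 0.343), nor did the difference in log2(CPM + 1) between the genes (exact permutation p = 0.229). Pou4f1 gave between 61.9% and 81.5% of the summed CPM of the 3 genes.

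**Figure D2:**
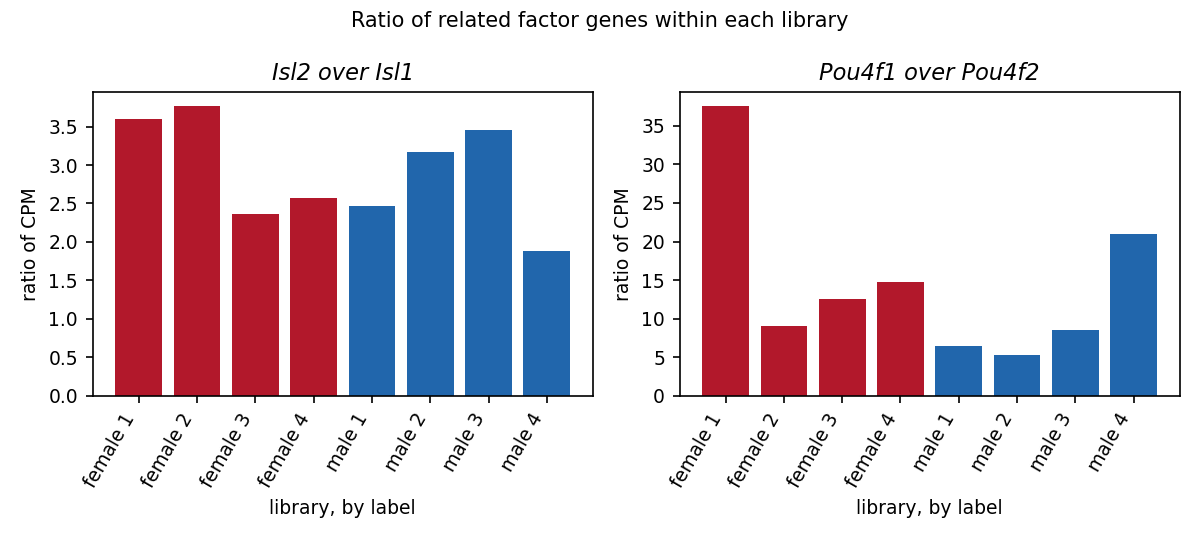
Ratio of the CPM of Isl2 to Isl1 and of Pou4f1 to Pou4f2 in each library labelled female and male. The Isl ratio lies between 1.88 and 3.76 in all 8 libraries and the Pou4f ratio between 5.22 and 37.5.

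Runx1 (ENSMUSG00000022952.16, chromosome 16, 92601466 to 92826149, minus strand), which in mouse nociceptors drives the non-peptide fate and sustains the receptor Ret, had 66.9, 56.0, 48.9 and 79.9 CPM in the libraries labelled female, against 89.0, 56.6, 62.2 and 92.3 CPM in those labelled male. Male 1 and male 4 were highest, and the groups overlapped. Runx1 is also a blood cell factor. The 12 blood and immune markers, of which 9 passed the filter, summed to between 783 and 2870 CPM in the libraries labelled female and between 714 and 2236 CPM in those labelled male, and the myeloid factor Spi1 lay between 0.308 and 1.85 CPM. Within that sum the haemoglobin gene Hba-a1 alone lay between 402 and 1975 CPM over the 8 libraries. The macrophage gene C1qa lay between 72.2 and 264 CPM and the leukocyte gene Ptprc between 2.27 and 7.18 CPM. The part of blood cells in the level of Runx1 was not tested. Runx3, the relative that acts in limb position neurons, averaged 4.19 ± 1.46 CPM under the female label and 3.79 ± 1.72 CPM under the male label (SD, n = 4 each), and Cbfb, the partner that both need to bind DNA, averaged 70.9 ± 34.4 CPM under the female label and 129 ± 38.4 CPM under the male label (SD, n = 4 each); both were picked after their values were seen. On the log2 scale Cbfb differed by -0.92 (limma adjusted p = 0.446), and by -0.55 without both replicate 1 libraries. Runx3 differed by 0.14 (limma adjusted p = 0.835), and by 0.03 without those libraries. For both genes the groups overlapped. The ratio of Runx1 to Runx3 was between 9.2 and 31.5 in libraries labelled female and between 9.12 and 31.7 in those labelled male.

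Prdm12 (ENSMUSG00000079466.2, chromosome 2, 31640037 to 31655795, plus strand) is needed to form pain neurons in the mouse, and people without a working copy do not feel pain. It had 21.5, 25.7, 32.6 and 32.7 CPM in the libraries labelled female, against 34.8, 22.1, 32.6 and 29.6 CPM in those labelled male. The groups overlapped almost entirely, and the whole range was 1.62-fold. Its exons share 200 bases with the antisense RNA Gm13425, which averaged 3.32 CPM; whether counting used strand is not given in the sources used here.

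Drgx (listed as Prrxl1, ENSMUSG00000041730.13, chromosome 14, 32599407 to 32649246, plus strand), a paired-type homeobox gene needed for pain fibres to reach the dorsal horn, varied far more. It had 24.7, 28.5, 6.93 and 12.3 CPM in the libraries labelled female, against 19.9, 25.8, 18.7 and 14.5 CPM in those labelled male. Both ends of its range lay in the libraries labelled female, with 55 reads in female 3 and 346 reads in female 2, and its means were 18.1 ± 10.2 CPM under the female label and 19.7 ± 4.67 CPM under the male label (SD, n = 4 each). The dorsal horn also makes Drgx, and male 2, which held central nervous system transcripts, was its second highest library; the part of those transcripts in its level was not tested.

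Tlx3 (ENSMUSG00000040610.7, chromosome 11, 33200752 to 33203589, minus strand), a homeobox gene that works with Runx1 in mouse pain and itch neurons and marks excitatory neurons of the dorsal horn, was the most abundant and the most variable of the factors. It had 312, 143, 451 and 273 CPM in the libraries labelled female, against 96.0, 84.2, 162 and 249 CPM in those labelled male. Female 3 was highest and male 2 lowest, and the groups overlapped through female 2 and male 4. Its coefficient of variation over 8 libraries was 56.3%, where counting error alone would give 2.45%. Tlx3 took between 22.6% and 53.3% of the summed CPM of the 10 factors in the libraries labelled female and between 16.4% and 33.6% in those labelled male. The part of the central nervous system transcripts of male 2 in its Tlx3 level was not tested.

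Shox2 (ENSMUSG00000027833.16, chromosome 3, 66971727 to 66981771, minus strand), which in the mouse favours touch neurons with the receptor Ntrk2, had 36.4, 34.3, 24.4 and 32.1 CPM in the libraries labelled female, against 35.2, 34.5, 30.4 and 38.7 CPM in those labelled male. Replicate 3 was the lowest in each group and the other libraries lay within a narrow band. Shox2 is also made in connective tissue. The 7 fibroblast and mesenchyme markers summed to between 650 and 2459 CPM in the libraries labelled female and between 1163 and 2325 CPM in those labelled male, and their part in the level of Shox2 was not tested. Its exons share 153 bases with Rsrc1 on the other strand, which averaged 89.5 CPM.

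Spread set the factors into groups without regard to label. Isl1, Shox2, Prdm12, Isl2, Pou4f3, Runx1 and Pou4f1 ranged between 1.49-fold and 2.02-fold, less than the median gene at 2.21-fold. Pou4f2 ranged 3.67-fold, Drgx 4.11-fold and Tlx3 5.36-fold, and 15.8%, 12.2% and 6.92% of the 8589 genes ranged more widely than these. Pou4f2, at a mean of 9.32 CPM, lies outside that set, so its share is against genes of higher counts. The coefficient of variation of Pou4f2 was 39.5%, where counting error alone would give 11.3% at its low read number.

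**Figure D3:**
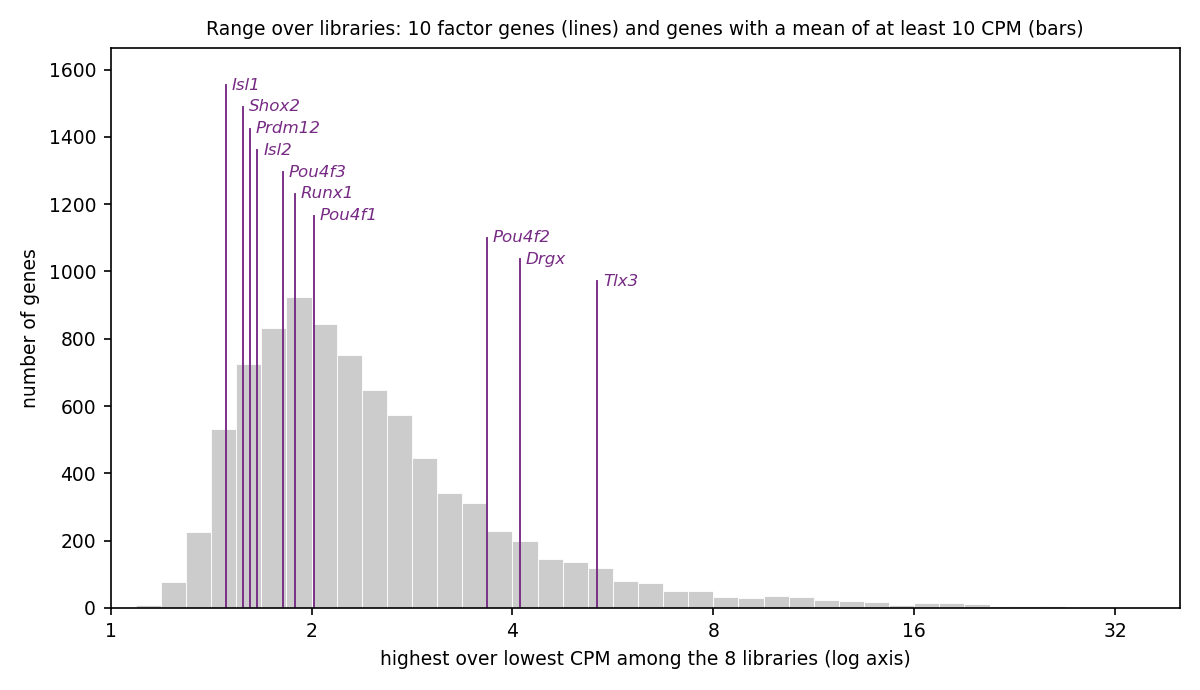
Highest over lowest CPM among the 8 libraries (log axis) for the 8589 genes at a mean of 10 CPM or more with no value of 0 (bars, number of genes), with each factor gene as a line whose height has no meaning. Isl1 lies at 1.49-fold and Tlx3 at 5.36-fold, on either side of the median of 2.21-fold.

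No factor passed the test between labels. The test was limma on log2(CPM + 1) over all 14505 tested genes with Benjamini-Hochberg adjustment; it called 0 of 10 factors and 0% of all genes at an adjusted p under 0.05, and 1 of 10 factors, Tlx3, and 11% of all genes had an unadjusted p under 0.05. Non-overlapping groups were found for 0 of 10 factors and for 4.23% of all genes, and without both replicate 1 libraries for 0 of 10 and 7.59%. The mean was higher under the female label for 4 of 10 factors, Tlx3, Pou4f3, Pou4f1 and Isl2, and for 32.5% of all genes. The median difference was -0.11 over the factors and -0.18 over all tested genes, and it was -0.01 over all genes after median ratio scaling. Small negative differences can turn with the scaling. The counts are few and the factors were not chosen at random, so nothing particular to them follows from either share.

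Tlx3 had the largest difference among the factors. It averaged 295 ± 127 CPM under the female label and 148 ± 75.6 CPM under the male label (SD, n = 4 each), a log2 difference of 1.01 with a standard error of 0.40, a 95% interval of 0.13 to 1.90 and a limma adjusted p of 0.446. Left without female 2, the difference was 1.32 with a limma adjusted p of 0.0413, in a fit that called 9.33% of all genes. With libraries weighted by their spread it was 1.36 with a limma adjusted p of 0.00862, in a fit that called 30.1% of all genes and gave female 4 a weight of 3.13 and female 2 a weight of 0.312. Without both replicate 1 libraries the difference was 0.79 with a limma adjusted p of 0.946, and without male 2 as well it was 0.37, the lowest among the alternatives, with a limma adjusted p of 1.0.

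Pou4f2 averaged 7.20 ± 2.42 CPM under the female label and 11.4 ± 3.72 CPM under the male label (SD, n = 4 each), a log2 difference of -0.60 with a standard error of 0.32 and a limma adjusted p of 0.455. It was -0.25 without both replicate 1 libraries, -0.016 without male 2 as well, and -0.71 with weighted libraries, where its limma adjusted p was 0.0383. Pou4f3 differed by 0.31 with a 95% interval of -0.18 to 0.81, Drgx by -0.27 with -1.14 to 0.59, and Runx1 by -0.24 with -0.76 to 0.28. These intervals leave room for changes in either direction.

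The remaining factors lay nearer to 0. Pou4f1 differed by 0.18 with a 95% interval of -0.37 to 0.72, Isl1 by -0.16 with -0.59 to 0.26, Shox2 by -0.13 with -0.56 to 0.30, Prdm12 by -0.08 with -0.57 to 0.41 and Isl2 by 0.00 with -0.48 to 0.49. After median ratio scaling Isl1 stood at 0.03, Prdm12 at 0.11 and Shox2 at 0.06, so the direction of these 3 turned. An exact permutation test of each factor over the 70 ways to split the libraries, whose smallest p is 0.0286, gave between 0.114 for Tlx3 and 1 for Isl2. Without both replicate 1 libraries 6 genes, 0.0414% of all, were called, none of them a factor, and the factors had limma adjusted p between 0.946 and 0.998.

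**Figure D4:**
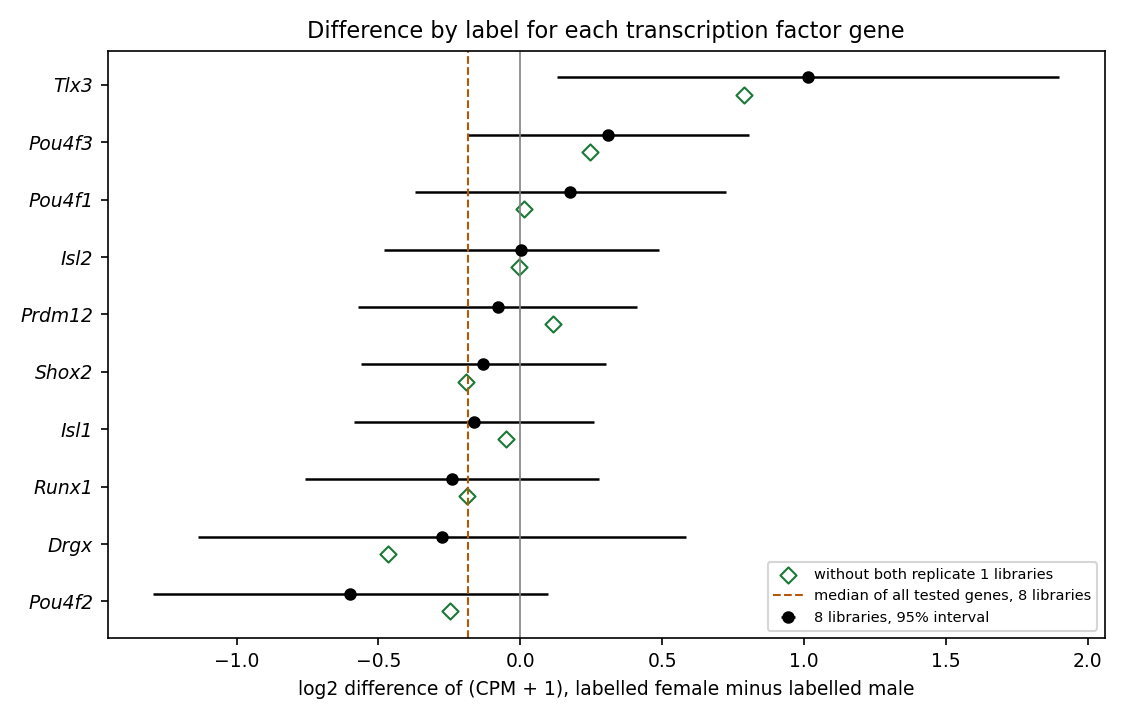
Difference in log2(CPM + 1) between libraries labelled female and male for each factor gene (female minus male), with 95% intervals from limma over 8 libraries, beside the value without both replicate 1 libraries. All intervals but that of Tlx3 (0.13 to 1.90) cross 0.

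Since these genes are made by neurons, each was also set against the mean log2(CPM + 1) of 14 pan-neuronal genes in the same library, which was 9.46 ± 0.143 under the female label and 9.28 ± 0.201 under the male label (SD, n = 4 each, exact permutation p = 0.229). In bulk ganglia fewer cells of a type and less RNA per cell cannot be told apart. On this relative log2 scale Tlx3 differed by 0.83 (exact permutation p = 0.0857), Isl1 by -0.34 (exact permutation p = 0.0857), Runx1 by -0.42 (exact permutation p = 0.143) and Pou4f2 by -0.78 (exact permutation p = 0.2). None of the 10 reached an unadjusted p of 0.05. Relative to the neuronal score Tlx3 ran from -2.67 in male 2 to -0.78 in female 3, a span of more than 1 unit of log2.

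The spread of Tlx3 and Pou4f2 followed the main axis along which the libraries differed. The first principal component of all tested genes other than the factors held 59.3% of the variance and placed female 1, 3 and 4 and male 4 at scores between 30.3 and 58.3, and female 2 and male 1, 2 and 3 at scores between -59.1 and -23.6. In the libraries with positive scores Tlx3 lay between 249 and 451 CPM, in the others between 84.2 and 162 CPM. Pou4f2 lay between 3.97 and 7.87 CPM on the positive side and between 9.79 and 14.5 CPM on the other. Each side holds 3 libraries of one label and 1 of the other, so the component and the label overlap in part.

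Cell type markers also differed between the sides of the component. They were among the genes that defined it, so some of that difference is built in. The pan-neuronal score lay between 9.47 and 9.60 on the positive side and between 9.08 and 9.37 on the other. Its genes did not move as one: 5 of the 14, among them Uchl1 and Prph, lay higher on the positive side with no overlap, Stmn2 lay lower, at 688 to 792 CPM against 1103 to 1663 CPM, and 8 overlapped, Snap25 and Rbfox3 among them. The score of the 9 myelinating Schwann cell genes lay between 7.51 and 8.01 on the positive side and between 8.28 and 8.89 on the other. The part of these markers in the spread of Tlx3 and Pou4f2 was not tested. The other 8 factors overlapped between the sides. Of the 28 tested genes on a list of other sensory neuron transcription factors, 4 lay higher on the positive side with no overlap. On that list 7 lay lower and 17 overlapped, and these genes too were among those that defined the component. The share of all tested genes without overlap was not counted, so nothing particular to Tlx3 and Pou4f2 follows.

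**Figure D5:**
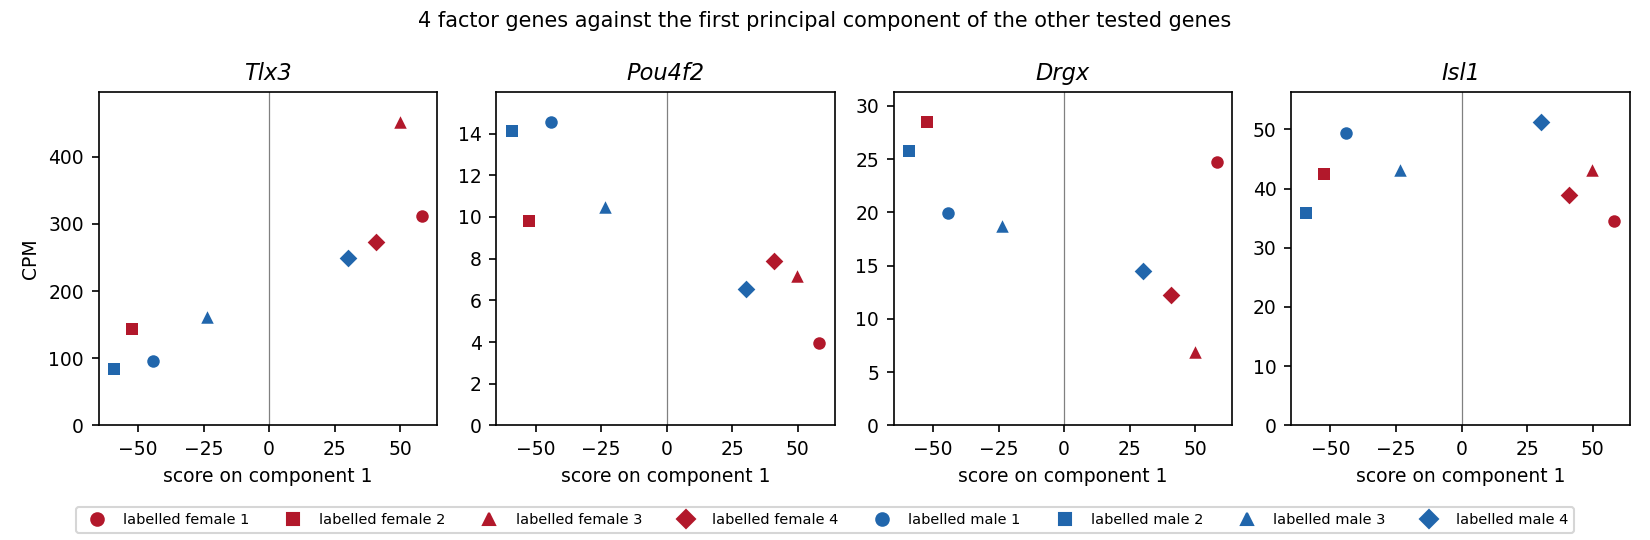
Level of Tlx3, Pou4f2, Drgx and Isl1 in CPM against the score of each library on the first principal component of all tested genes other than the factors. Colours give the label. Tlx3 is at or above 249 CPM where the score is positive, and Pou4f2 at or below 7.87 CPM. Drgx and Isl1 overlap between libraries with positive and negative scores.

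For each factor the 3 genes with the most similar pattern were taken by Pearson's r over the 8 libraries among 8596 genes at a mean of 10 CPM or more. All genes of a library share its scaling and its place on the component above. The best of so many genes is also high by selection, so r is a description of likeness only. Tlx3 was most like Obfc1 (r = 0.997), Htatip2 (r = 0.992) and Ube2o (r = 0.992), and 438 genes had r above 0.9 with it. Pou4f2 was most like Ubl3 (r = 0.989), Ppp1r16b (r = 0.98) and Mtx2 (r = 0.975), with 439 genes above 0.9. Isl1 was most like Asah2 (r = 0.957), Dnajb4 (r = 0.931) and Coro1a (r = 0.907), the only 3 above 0.9. The other factors had between 5 and 100 such genes.

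Drgx was most like Bcas3, Pip4k2c and Cant1, Pou4f1 most like Tgoln1, Sox4 and Fam222b, and Shox2 most like Sgcb, Celf4 and Tmem150c. Isl2 was most like Pmm1, Gm10046 and Farsb, and Pou4f3 most like Zfp954, Zpr1 and Atp6v1e1. Runx1 was most like Camta1, Sema3c and Nr2f2, and Prdm12 most like Med30, Erlec1 and Hdac2. Of the 45 pairs of factors, 24 had a negative r over the 8 libraries and the median was -0.03. The lowest r was -0.84, for Pou4f2 both with Tlx3 and with Pou4f1, and the highest 0.71, for Prdm12 with Isl1.

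Other transcription factors of sensory neurons did not pass the test either. Of a list of 32, 28 were tested and 0 were called in either direction. Of the 28, 9 (32.1%) were higher under the female label, beside 32.5% of all tested genes. The median difference of the 28 was -0.34 beside -0.18 for all tested genes. Without both replicate 1 libraries the median was -0.29 beside -0.12. In that fit 10 of the 28 were higher under the female label, beside 5167 of all 14505 tested genes. The most abundant was Klf7, a factor needed by pain neurons in the mouse, at 242 ± 83.5 CPM under the female label and 360 ± 94.1 CPM under the male label (SD, n = 4 each, log2 difference -0.59, limma adjusted p = 0.449). Maf, a factor of touch neurons, stood at 157 ± 25.6 CPM under the female label and 160 ± 22.7 CPM under the male label (SD, n = 4 each, limma adjusted p = 0.94), and Ebf1, an early neuronal differentiation factor, at 83.1 ± 29.2 CPM under the female label and 144 ± 23.3 CPM under the male label (SD, n = 4 each, log2 difference -0.83, limma adjusted p = 0.446). Nfia, Zeb2 and Casz1 differed by -0.37, 0.08 and -0.25. The mean levels of Tlx3 and Isl2 lay within the range of these 6 abundant factors, between 109 CPM for Casz1 and 301 CPM for Klf7, and the other 8 factors lay below it.

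The 12 genes downstream of the factors gave 0 calls in either direction. Of the 12, 5 (41.7%) were higher under the female label, beside 32.5% of all tested genes. The median difference of the 12 was -0.43 beside -0.18 for all tested genes. The median without both replicate 1 libraries was -0.02 beside -0.12 for all tested genes. Ret, which Runx1 sustains in pain neurons, was 334 ± 67.7 CPM under the female label and 329 ± 33.5 CPM under the male label (SD, n = 4 each), a log2 difference of 0.01. Ntrk2, the receptor of touch neurons that Shox2 favours, was 77.0 ± 39.1 CPM under the female label and 126 ± 46.9 CPM under the male label (SD, n = 4 each). Ntrk3, the receptor of limb position neurons, was 42.7 ± 13.7 CPM under the female label and 69.2 ± 20.7 CPM under the male label (SD, n = 4 each). The log2 differences were -0.74 for Ntrk2 and -0.68 for Ntrk3, each with a limma adjusted p of 0.446. Without both replicate 1 libraries they were -0.57 for Ntrk2 and -0.41 for Ntrk3.

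Receptor and channel genes of pain and itch neurons had overlapping groups. Mrgprd, the receptor of the non-peptide pain neurons, was 14.0 ± 8.09 CPM under the female label and 24.6 ± 12.1 CPM under the male label, and the itch receptor Mrgpra3 was 4.10 ± 4.57 CPM under the female label and 5.44 ± 3.87 CPM under the male label (SD, n = 4 each). The ATP-gated channel P2rx3 was 25.6 ± 13.8 CPM under the female label and 20.2 ± 12.6 CPM under the male label, and the cold channel Trpm8 2.0 ± 0.54 CPM under the female label and 1.85 ± 1.13 CPM under the male label (SD, n = 4 each). Tac1, which encodes substance P, differed by 0.22, the sodium channel gene Scn10a by 0.09, Trpv1, the heat channel, by -0.41 and Calca, which encodes a pain neuropeptide, by -1.03, none of them called. With both replicate 1 libraries left out, Calca differed by -0.51, Trpv1 by 0.05, Mrgprd by -0.34, against -0.79 in all 8 libraries, and Mrgpra3 by 0.11, against -0.45. On the side of the component where Tlx3 was high, Mrgprd lay between 8.56 and 14.3 CPM. It lay between 17.2 and 41.2 CPM on the other side. P2rx3 went the opposite way, between 23.6 and 43.1 CPM where Tlx3 was high and between 9.54 and 16.4 CPM elsewhere. Of the 12 downstream genes, 6 lay lower where Tlx3 was high with no overlap, 2 lay higher, P2rx3 and Tac1, and 4 overlapped. These genes were themselves among those that defined the component. The share of all tested genes without overlap between the sides was not counted, so nothing particular to the downstream genes or to their tie to Tlx3 follows.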

How the data were processed

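Per the labels' protocols, ganglion RNA came from a TRIzol extraction, lost its ribosomal RNA to a RiboCop kit and went into QuantSeq 3′ end libraries. The authors deposited values named TPM, but each library sums to 1000000 and low values are whole multiples of 1 step per library, so they were treated as CPM. The step gave the depth, between 7497805 and 12155800 counted reads. Tools in the submitters' processing notes are TopHat2 2.1.1, Bowtie2 2.2.9, Cufflinks 2.2.1 and FastQC 0.11.5, with the builds mm10 and GRCm38.p4 and no role for each; annotation and strand setting were not given in the sources used here.

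Rows sharing a symbol were summed (110 symbols). Genes reaching a mean of 1 CPM were tested, 14505 in all, as log2(CPM + 1), a scale that understates changes of low genes, with limma 3.58.1 (R 4.3.3), a trend of variance on level and Benjamini-Hochberg adjustment at 0.05, two-sided. The fit was tested on simulated data. Single values were tested by exact permutation over 70 splits or by exact sign flips. Principal components used log2 values without the factors. Identifiers matched GENCODE M21 for 48052 of 48431 rows (99.2%), the source of positions and homeobox sequences. Named genes were the 10 factors, the 12 downstream genes (1 of them is not reported here), the 6 most abundant other factors, the 3 genes most like each factor, and check genes; Cbfb, Runx3 and single marker genes were picked after their values were seen. The factors and lists were chosen with earlier results of these data known. Alternatives were other pseudocounts, filters, scalings, variance models, library weights, the replicate block and leaving out libraries. No 2 libraries held identical values (28 pairs). The 95% intervals and the floor of 3 reads cover counting error only.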

Additional observations from a re-analysis of the deposited data

How the results depend on the processing

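The count of called genes, 0 of 14505, was 4363 with array weights, 6 without both replicate 1 libraries, 4 without those and male 2, and between 0 and 1354 when leaving out 1 library, the highest without female 2. The count of called factors, 0, was 2 with array weights (Tlx3 and Pou4f2) and between 0 and 1 when leaving out 1 library (Tlx3 without female 2). The 3 gaps that passed between neighbours in level were between 0 and 3 when leaving out 1 library, and 0 without both replicate 1 libraries, with or without male 2, where fewer libraries raise the smallest p. The replicate numbers gave no pairing: deviations of same-numbered libraries correlated at -0.31, 0.70, -0.15 and 0.44, not every library correlated best with its own number, and the replicate block called 0 genes and 0 factors. Among 210 recomputed differences of the factors, 187 kept direction and side of the threshold, 20 turned and 3 came to pass. With median ratio scaling Isl1 was 0.027, Prdm12 0.11 and Shox2 0.060; with TMM scaling they were 0.011, 0.092 and 0.043; with quantile normalization Prdm12 was 0.078 and Shox2 0.0047; with array weights Prdm12 was 0.053 and Isl2 -0.21. Without both replicate 1 libraries Prdm12 was 0.12 and Isl2 -0.0035; without male 2 as well, Tlx3 was 0.37, Pou4f2 -0.016, Isl2 -0.03, Pou4f1 -0.18, Pou4f1 relative to the neuronal score -0.18 and the log2 ratio of Pou4f1 to Pou4f2 -0.16 by label. Leaving out 1 library, the range was -0.14 to 0.11 for Isl2, -0.21 to 0.037 for Prdm12, -0.55 to 0.086 for Drgx and 0.03 to 0.35 for Pou4f1; relative to the neuronal score it was -0.14 to 0.13 for Pou4f1 and -0.057 to 0.28 for Pou4f3; it was 0.40 to 1.17 for the ratio of Pou4f1 to Pou4f2 and -0.013 to 0.18 for the gap of Pou4f3 over Shox2. The cause of these turns was not tested. Depth limits Pou4f2 most, with 44 to 130 reads.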

Other observations

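Factors of the embryonic neurogenic programme were at low levels beside the factors that keep identity. Neurog1, which starts neuron formation in the ganglion, lay between 0.934 and 2.16 CPM in libraries labelled female and between 0.615 and 1.47 CPM in those labelled male. Neurod1, which acts after it, lay between 1.07 and 2.25 CPM in libraries labelled female and between 1.63 and 2.56 CPM in those labelled male. Neurog2, the earlier partner of Neurog1, was at 0 in 4 of 8 libraries and at most 0.611 CPM. Onecut3 was at 0 in all 8 libraries, which allows a level of up to 0.40 CPM in the shallowest of them, while its relative Onecut2 averaged 104 CPM.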
